A study of Mus musculus with 22 samples.

Results

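The comparison described here sets the infrarenal aorta of tenascin C knockout (TNC-KO) mice against that of wild-type (WT) mice after the same vascular challenge, and it holds 2 of the 22 arrays of the series, 1 for each genotype. All mice were male C57BL/6. In the challenged groups, CaCl2 at 0.5 M was placed around the infrarenal aorta to stiffen it and angiotensin II, a peptide that raises blood pressure, was infused at 1 µg/min/kg for 1 week. The labels abbreviate this combination as Ca+AngII, and it is called the challenge below. Each array carries the RNA of 10 mm of aorta below the left renal artery, pooled over 8 mice. The other 6 aortic arrays are the suprarenal aorta of challenged mice of each genotype, also pooled over 8, and both segments of untreated mice of each genotype, pooled over 5. The suprarenal segment was not painted with CaCl2 but was exposed to the infused angiotensin II. The remaining 14 arrays are cultured aortic smooth muscle cells of TNC-KO mice and served to show how far replicate arrays scatter and, averaged with the aortic arrays, to choose the probe set read for each gene.

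Tenascin C is a large hexameric glycoprotein of the extracellular matrix that adult arteries express little of at rest and more of under mechanical load, injury or inflammation. It binds integrins, syndecan 4 and Toll-like receptor 4, and it is known in the aorta for acting both on the matrix that carries the load and on inflammatory signalling. An infrarenal segment dissected from a mouse also carries adventitial fibroblasts, fat, lymphoid tissue and whatever lies against it, and all of these contribute RNA to a pool.

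Levels are given as the deposited signal, a linear intensity whose average on each array, once the extreme 2% at each end were set aside, was about 500 units. Signals of different genes come from different probes and are not compared with each other. Ratios are log2(signal + 32) in TNC-KO minus the same in WT, so a ratio of 1 is 2-fold higher in TNC-KO and a ratio of -1 is 2-fold lower. The offset of 32 shrinks the ratios of dim genes. With 1 pool for each genotype there is no replicate and no test, and every difference below is a difference between these 2 pools, not between genotypes. For scale, the median standard deviation between replicate arrays of the cultured cells was 0.12 on the same scale.

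The targeted gene followed the labels. Tnc had a signal of 2699 in the WT pool and 441 in the TNC-KO pool, a ratio of -2.53, or 5.77-fold lower. In the other pairs it was 2327 against 489 in the challenged suprarenal aorta, 2453 against 336 in the untreated infrarenal aorta and 1805 against 257 in the untreated suprarenal aorta, so no TNC-KO pool came near any WT pool. A second probe set of Tnc read 251 and 242 in the challenged infrarenal pair, a ratio of -0.05. Which part of the gene the knockout removes, and where these probes lie in it, is not given in the sources used here, so the remaining signal cannot be assigned to a transcript. The other tenascins lay close together in the 2 pools. Tnxb, a tenascin of loose connective tissue, read 3772 in WT and 4582 in TNC-KO, and Tnn, a tenascin of bone and periosteum, read 127 and 123. Of the 15 measured members of the list of tenascins and tenascin C receptors that passed the filter on dim genes, 14 lay within 1.5-fold, where 3.01% of all genes were further apart. They included Tlr4 with 758 in WT and 636 in TNC-KO, Itgav with 6604 and 6292, and Itga9, a tenascin C binding integrin subunit, with 669 and 665.

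The 2 pools were close to each other. A gene entered the comparison if its signal was at or above the median of all probe sets on at least 1 of the 2 arrays, and 11677 genes did. Of these, 43 read at least 2-fold higher in TNC-KO (0.368%) and 51 at least 2-fold lower (0.437%), together 0.805% of the genes. By the same rule 278 genes (2.33%) stood apart in the challenged suprarenal pair, 150 (1.31%) in the untreated infrarenal pair and 157 (1.33%) in the untreated suprarenal pair. The median ratio over all genes was 0.02 and the standard deviation of the ratios was 0.28. Over the 2919 brightest genes the median absolute ratio was 0.11. Over the 2920 dimmest it was 0.18, and 36 of the 94 genes lay there. Of the 43 higher genes, 21 were below the filter in the WT pool, and 16 of the 51 lower genes were below it in the TNC-KO pool, so these passed only through the pool where they were high and had to differ in that direction.

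**Figure D1:**
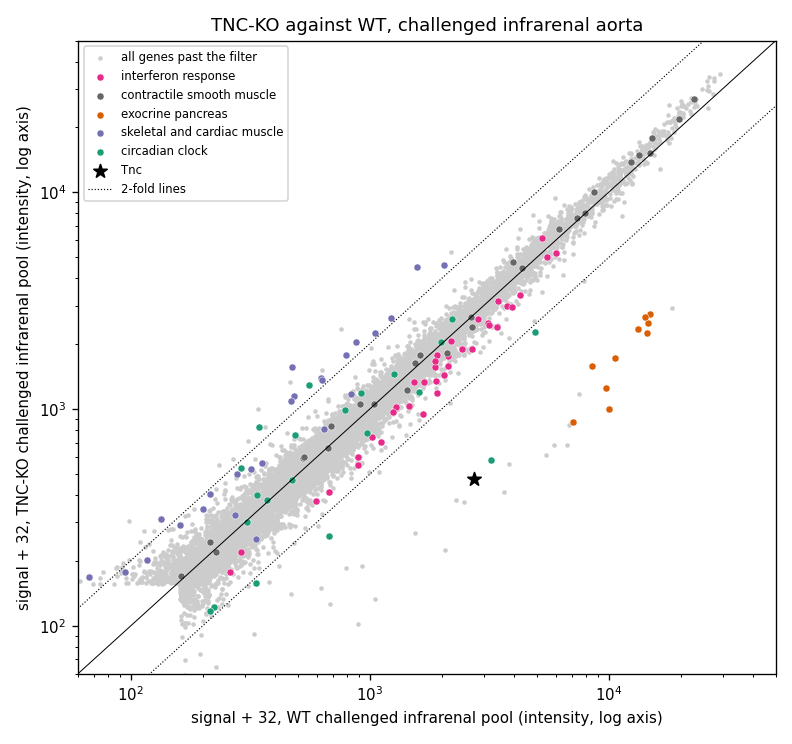
Signal + 32 in the WT challenged infrarenal pool (x axis, intensity, log axis) against the TNC-KO challenged infrarenal pool (y axis, intensity, log axis), 1 point per gene past the filter, with members of 5 gene lists coloured, Tnc as a star and dotted lines at 2-fold. Most genes lie along the diagonal; all 10 exocrine pancreas genes and Tnc lie below the lower line, and 13 of the 25 skeletal and cardiac muscle genes lie above the upper one.

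The largest group among the genes that read lower in TNC-KO came from the exocrine pancreas, the gland that secretes digestive enzymes. All 10 measured members of the exocrine pancreas list read at least 2-fold lower, against 0.437% of all genes. This list, like the other gene lists, was chosen with earlier results of these data known, so such shares describe the pools and test nothing. Clps, the cofactor of pancreatic lipase, had a signal of 9969 in the WT challenged infrarenal pool and 967 in the TNC-KO pool, and at most 82.7 in the other 6 aortic pools. Cel, a lipase that acts with bile salts, read 7043 and 839, and Prss2, a trypsinogen, read 14453 and 2203. Both challenged infrarenal pools therefore held these messages far above the other pools, and the WT pool held the most. Over the list, signals ran from 7043 to 14785 in the WT pool, from 839 to 2709 in the TNC-KO pool and from 1.92 to 671 in the other 6, and no measured member was below the filter in either challenged infrarenal pool. The ratios of the 10 members spanned only -3.32 to -2.42. In bulk tissue, fewer cells of a type and less RNA per cell cannot be told apart.

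The same pattern reached well past the list. Of the 51 genes that read lower, 30 were at least 4-fold higher in the WT challenged infrarenal pool than in each of the other 7 aortic pools. The 51 were chosen for a high WT value in this pair, and the share of all genes with this shape was not computed. The 30 are described only. These 30 included the secretory proteins Zg16, with 6657 in WT and 654 in TNC-KO, and Reg1, with 5863 and 649, and also Pnliprp1, Sycn, Rnase1, Spink1 and Gp2. Without genes of this shape, 21 lower genes were left, among them Tnc, 4 clock genes, the B-cell genes Fcer2a and Ms4a1, and the inflammatory genes Cxcl5, Acod1 and Slfn4.

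Striated muscle genes read the other way. Of 35 measured members of the skeletal and cardiac muscle list, 25 passed the filter and 13 of these were at least 2-fold higher in TNC-KO, against 0.368% of all genes, with a median ratio of 1.10 against 0.02. Of the 25, 4 passed only through the TNC-KO pool. Acta1, the skeletal muscle actin, read 2021 in WT and 4566 in TNC-KO, Myl1, a fast-muscle myosin light chain, read 1538 and 4463, and Myh1, a fast-muscle myosin heavy chain, read 440.3 and 1527. These genes varied more among the 8 pools than between these 2: Acta1 read 5023 and 363 in the untreated infrarenal WT and TNC-KO pools, 14074 and 594 in the untreated suprarenal pools, and 2047 and 4647 in the challenged suprarenal pools. The median ratio of the list was 1.11 in the challenged suprarenal pair, but -2.33 and -3.85 in the untreated infrarenal and suprarenal pairs, so the order of the genotypes turned with the treatment. Sln and Apobec2, striated muscle genes outside the list, were also among the 43 higher genes.

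Adrenal cortex genes gave the highest single ratio. Hsd3b1, a steroid dehydrogenase of the adrenal cortex, read 6.08 in WT and 182 in TNC-KO, a ratio of 2.49. It read far higher in other pools, with 2613 in the untreated infrarenal TNC-KO pool and 1425 in the challenged suprarenal WT pool. Cyp11b1, which makes corticosterone, read 34.6 and 135 in the pair, whereas Star, the cholesterol carrier of steroid-making cells, read 238 and 206. Of 8 measured members of the adrenal list, 3 passed the filter. Of these, 2, Hsd3b1 and Cyp11b1, passed only through the TNC-KO pool, so the filter fixed their direction.

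**Figure D2:**
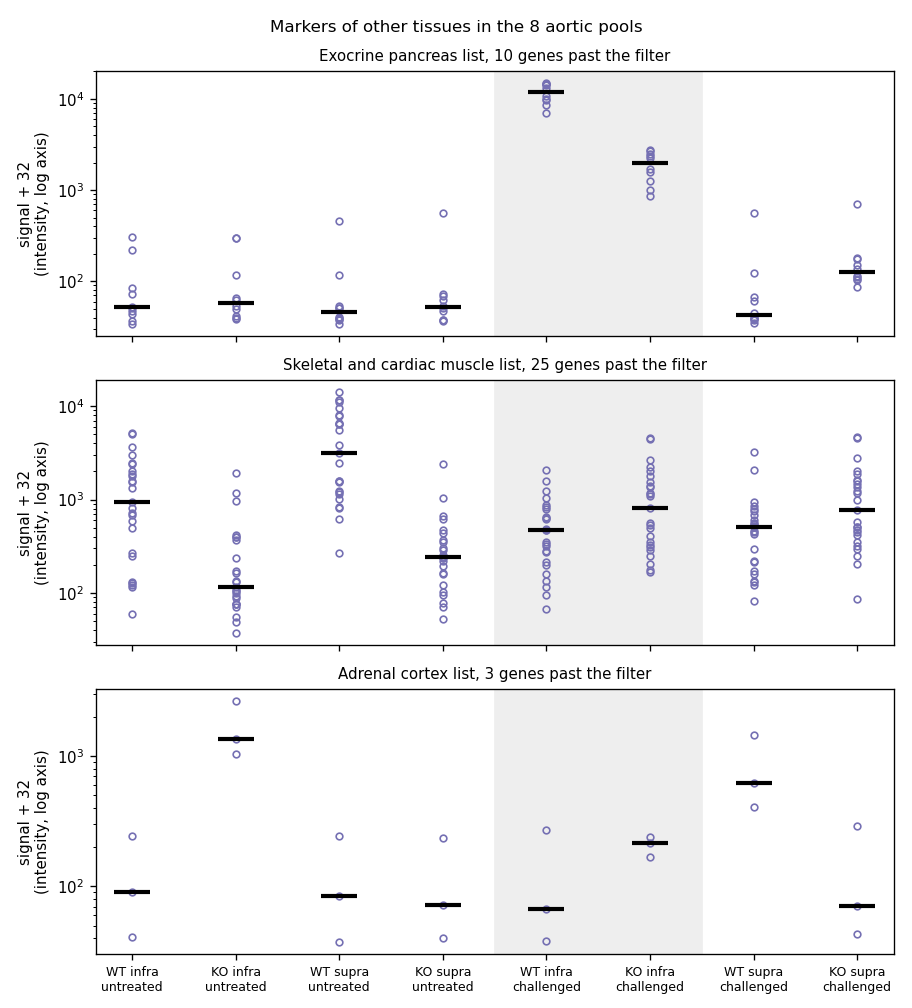
Signal + 32 (intensity, log axis) of the members of 3 tissue marker lists in each of the 8 aortic pools, 1 open circle per gene and a black bar at the median, with the challenged infrarenal pair shaded. Pancreas genes stand out in both shaded pools and most in WT, muscle genes are highest in the untreated suprarenal WT pool, and adrenal genes are highest in the untreated infrarenal TNC-KO pool.

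Genes of the aortic wall itself were alike in the 2 pools, as most genes were. The summed signal of the contractile smooth muscle list was 152879 in WT and 167771 in TNC-KO, below the 177901 to 283910 of the other 6 pools. Of 27 contractile smooth muscle genes past the filter, none was 2-fold or 1.5-fold apart, where 0.805% and 3.01% of all genes were. Of the 27, 22 were above 0, against 55.2% of all genes, and the median ratio was 0.12. With quantile normalization 18 of the 27 were above 0 and the median was 0.05, and with the mean of a gene's probe sets it was 16 of 26 and 0.04, so the lean above 0 depends on these choices. Acta2, the smooth muscle actin, read 22726 in WT and 26776 in TNC-KO, and Myh11, the smooth muscle myosin heavy chain, read 8638 and 9968. Cnn1, or calponin, which binds the thin filaments of smooth muscle, read 3961 and 4725, against 12300.0 and 11114 in the untreated infrarenal pools of WT and TNC-KO. Both challenged pools thus read below both untreated pools for Cnn1 and Myh11, which read 18736 and 18978 untreated. All 22 endothelial genes lay within 1.5-fold, where 3.01% of all genes were further apart, with a median of -0.01. All 17 fibroblast genes also lay within 1.5-fold, with a median of 0.19 that was 0.02 with quantile normalization.

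Collagens and elastic fibre genes differed little, as did most genes. None of 10 fibrillar collagen genes past the filter was 2-fold apart, where 0.805% of all genes were. Of the 10, 8 were above 0, against 55.2% of all genes, and the median ratio was 0.18. With quantile normalization 6 of the 10 were above 0 and the median was 0.09. Col1a1, a chain of type I collagen, read 15626 in WT and 15879.6 in TNC-KO, both above the 5278 and 4958 of the untreated infrarenal pools. Col3a1 read 27597 and 33702, a ratio of 0.29, at signals near the top of the arrays' range, whose maximum was 32699 in WT and 34962 in TNC-KO. Eln, which encodes elastin, read 8588 and 8966. The 15 elastic fibre genes lay within 1.5-fold, where 3.01% of all genes were further apart, with a median of 0.06.

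Proteoglycans and cartilage genes included a few dim members that were 2-fold apart. Of 21 proteoglycan and hyaluronan genes past the filter, 4 passed only through the TNC-KO pool, and the 3 that read at least 2-fold higher (0.368% of all genes did) were among them, so the filter fixed their direction: Kera, the keratan sulphate proteoglycan keratocan, read 29 in WT and 129 in TNC-KO, Hapln3, a link protein that ties proteoglycans to hyaluronan, read 42.3 and 134, and Chad, the cartilage protein chondroadherin, read 65.9 and 169. Acan, the cartilage proteoglycan aggrecan, read 509 and 788, and Col2a1, the cartilage collagen, read 418 and 741. Both were at most 169 and 52.2 in the other 6 pools, so they stood out in both challenged infrarenal pools and read higher in TNC-KO. Kera, Chad and Col2a1 did not show this order in the challenged suprarenal pair, where their ratios were 0.00, -0.24 and -0.49. Tnfrsf11b, or osteoprotegerin, a decoy receptor that restrains osteoclasts, went the other way with a ratio of -0.75.

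Proteases and matrix-bound signals stayed within 2-fold. All 32 metalloproteinase and inhibitor genes past the filter lay within 1.5-fold, where 3.01% of all genes were further apart, with a median of 0.07. Mmp13, a collagenase, read 5831 in WT and 4547 in TNC-KO against at most 122 in the other 6 pools, and Mmp9, a gelatinase of leukocytes, read 1049 and 1279. Adamts4, an aggrecanase, had the highest ratio of the list, with 346 in WT and 495 in TNC-KO. Mmp13, Mmp9 and Adamts4 thus stood within 1.5-fold in these 2 pools, as most genes did. Among 30 genes of TGF-beta signalling the median was 0.01 and 29 lay within 1.5-fold, where 3.01% of all genes were further apart. The exception, Grem1, an antagonist of bone morphogenetic proteins, read 376 in WT and 186 in TNC-KO, and less than its TNC-KO value in each of the other 6 pools. Among matricellular proteins, Thbs4, a thrombospondin, read 639 and 1077, and Ccn4, a Wnt-induced matrix protein, read 1443 and 979.5.

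**Figure D3:**
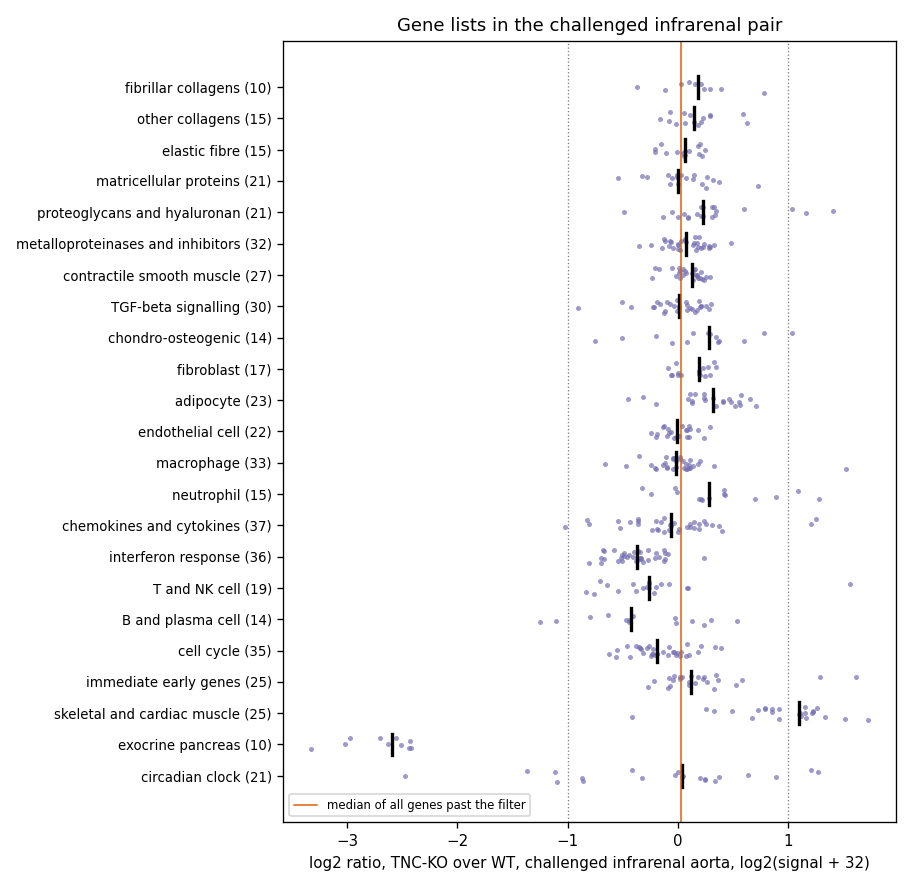
Log2 ratios of TNC-KO over WT in the challenged infrarenal aorta (x axis, log2(signal + 32)) for 23 gene lists (y axis, number of members past the filter in brackets), 1 point per gene, a black bar at each median, dotted lines at 2-fold and an orange line at the median of all genes. Contractile, matrix and endothelial lists sit around the orange line, the interferon, T-cell and B-cell lists sit below it, and the clock list spreads to both sides.

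Genes of the circadian clock separated the pools in both directions. The clock is a transcriptional loop in which BMAL1 (Arntl) with CLOCK or NPAS2 acts through E-box elements and is restrained by PER and CRY proteins. A second loop runs through REV-ERB repressors (Nr1d1, Nr1d2), which act at ROR elements, and output factors act at D-box elements, DBP, TEF and HLF as activators and NFIL3 as a repressor. Transcripts of the loop cycle over the day in arteries as elsewhere. The hour of tissue collection is not given in the sources used here. The list of 23 clock genes was drawn up after the values of several members had been seen. Of the 21 that passed the filter, 4 read at least 2-fold lower and 2 at least 2-fold higher in TNC-KO, against 0.437% and 0.368% of all genes.

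Windows upstream of 3 start sites are shown because they carry the elements through which these loops are known to act. Each is the 250 bases before a RefSeq start site (build GRCm38.p6), 5′ to 3′ on the strand of the gene, with matches in capitals. The D-box was searched as TTATGTAA, the E-box as CACGTG and the ROR element as TAGGTCA, on both strands and over the 250 bases before each start.
Per3, chr4:151044666-151044915, minus strand, 2 D-box matches: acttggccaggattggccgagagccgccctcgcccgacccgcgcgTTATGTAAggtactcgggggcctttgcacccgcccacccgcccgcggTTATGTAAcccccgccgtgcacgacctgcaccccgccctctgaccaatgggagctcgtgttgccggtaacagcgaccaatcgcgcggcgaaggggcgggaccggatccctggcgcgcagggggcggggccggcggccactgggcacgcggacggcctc
Ciart, chr3:95882229-95882478, minus strand, 3 E-box matches: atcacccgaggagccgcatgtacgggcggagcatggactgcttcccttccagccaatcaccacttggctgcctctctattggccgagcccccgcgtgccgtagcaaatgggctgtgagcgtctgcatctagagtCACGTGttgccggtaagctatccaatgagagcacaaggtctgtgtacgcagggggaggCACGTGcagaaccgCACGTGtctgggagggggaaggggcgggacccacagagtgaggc
Nfil3, chr13:52981040-52981289, minus strand, 1 ROR element match, on the opposite strand: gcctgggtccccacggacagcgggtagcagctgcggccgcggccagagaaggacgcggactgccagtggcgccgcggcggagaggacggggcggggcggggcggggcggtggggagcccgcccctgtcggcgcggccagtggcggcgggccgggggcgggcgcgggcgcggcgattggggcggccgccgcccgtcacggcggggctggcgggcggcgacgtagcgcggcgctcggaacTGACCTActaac
Among all 32851 windows of this length, 0.819% held the D-box, 6.02% the E-box and 2.23% the ROR element. Of the 17 clock genes past the filter that had a window, Per3 held the D-box, Nfil3 the ROR element, and Tef, Per1, Cry1 and Ciart the E-box. These are matches of letters, not measured binding, and the other clock genes had none of the 3 words in this window.

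The output arm read lower in TNC-KO. Dbp had a signal of 3193 in the WT challenged infrarenal pool and 549 in the TNC-KO pool, a ratio of -2.47, or 5.55-fold lower, and a second probe set gave -2.42. In the other pools Dbp read 4858 and 618 in the challenged suprarenal WT and TNC-KO pools, 8339.8 and 9099 in the untreated infrarenal pools, and 6496 and 6511 in the untreated suprarenal pools. Both challenged TNC-KO pools were thus the lowest of the 8, both challenged WT pools were next, and untreated WT and TNC-KO pools overlapped. Hlf read 191 in WT and 90.3 in TNC-KO, with 300.3 and 145 in the challenged suprarenal pair. Tef read 1568 and 1168, with 2272 and 1234 in the challenged suprarenal pair.

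Per3, a period gene whose window above holds both D-box matches, read 640.5 in WT and 228 in TNC-KO. Its 3 other probe sets past the filter had ratios of -1.12, -0.70 and -1.08. In the challenged suprarenal pair it read 652 and 241, while the untreated pools all lay between 969 and 1565. The other period genes were closer: Per1 read 942 and 745, and Per2 read 338 and 348.

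The REV-ERB genes were lower as well. Nr1d2 read 4894 in WT and 2243 in TNC-KO, with 5955 and 2108 in the challenged suprarenal pair and 6517 to 10197 over the 4 untreated pools. Nr1d1 read 303 and 125, with 388 and 155 in the challenged suprarenal pair, and its 2 challenged TNC-KO pools were again the lowest. Ciart, a repressor of the BMAL1 and CLOCK pair with 3 E-box matches in the window above, read 182 and 85.3, with 200.1 and 95 in the challenged suprarenal pair.

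The opposite arm read higher in TNC-KO. Nfil3 read 527 in WT and 1256 in TNC-KO, 265 and 1646 in the challenged suprarenal pair, and 122 to 273 over the untreated pools. Npas2, the partner of BMAL1, read 312 and 797, with 264 and 432 in the challenged suprarenal pair, although its second probe set differed by only 0.47. Arntl itself read 456 and 728, with 272 and 646 in the challenged suprarenal pair, and Clock read 1231 and 1416. Cry1, which represses BMAL1 and CLOCK, read 256 and 501. Dbp, Tef, Hlf, Per1, Per3, Nr1d1, Nr1d2 and Ciart therefore read lower, and Arntl, Npas2, Nfil3 and Cry1 higher, in the TNC-KO pools of both challenged segments. In the challenged infrarenal pair Hlf and Ciart passed the filter only through the WT pool, so the filter fixed their direction there. The labels do not say whether the 2 challenged segments came from the same mice, so the suprarenal pair need not be an independent repeat. Dbp, Per3, Nr1d2, Nr1d1, Ciart and Hlf were 6 of the 9 genes with the largest lower ratio shared by the 2 challenged pairs, next to Tnc, Klk1 and Gm13306.

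**Figure D4:**
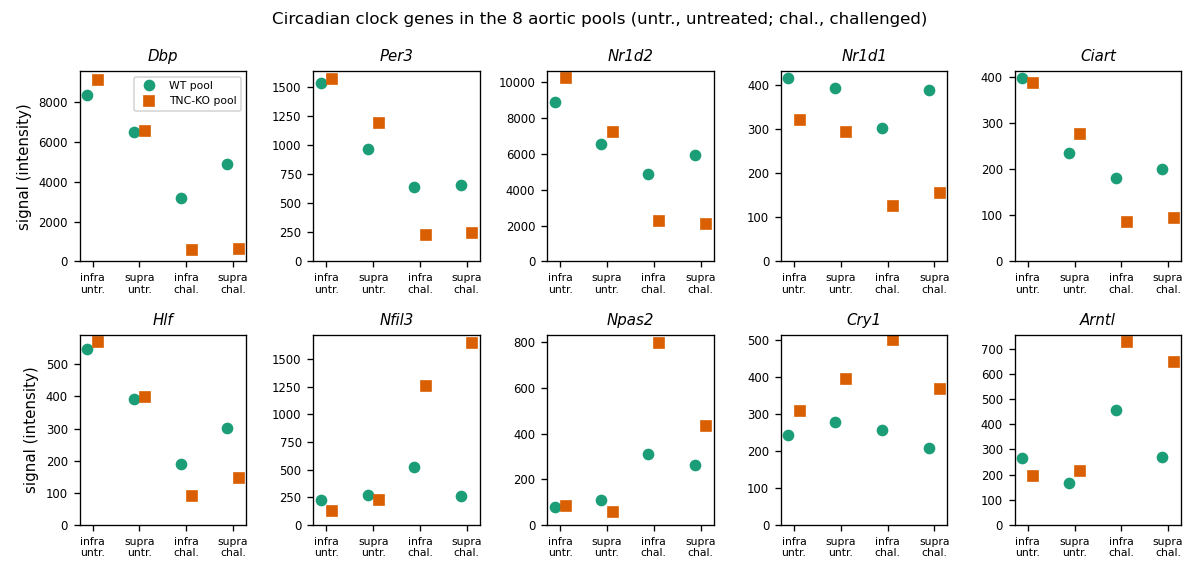
Signal (y axes, intensity, from 0) of 10 clock genes in the 8 aortic pools, WT as green circles and TNC-KO as orange squares, by segment and treatment along the x axis, 1 pooled array per point. The upper row and Hlf show the 2 challenged TNC-KO pools lowest; Nfil3, Npas2, Cry1 and Arntl show each challenged TNC-KO pool above its WT partner.

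Interferon-stimulated genes read slightly but almost uniformly lower in TNC-KO. These genes are switched on by interferons through interferon-stimulated response elements and encode antiviral proteins and T-cell attracting chemokines. Of 36 members past the filter, 35 had a ratio below 0, where 44.8% of all genes did. None was 2-fold apart, where 0.805% of all genes were. Of the 36, 6 were at least 1.5-fold lower, as were 1.61% of all genes. The median ratio was -0.37, and the exception was Ifi27 at 0.23.

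Short windows of 60 bases are shown for 5 of these genes because they hold the response element, searched on both strands as GAAA, any 2 bases and GAAA within 250 bases before the RefSeq start site (GRCm38.p6, 5′ to 3′ on the gene's strand, matches in capitals).
Cxcl10, chr5:92349068-92349127, minus strand: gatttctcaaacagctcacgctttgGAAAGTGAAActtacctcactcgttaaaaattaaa
Ifit1, chr19:34640769-34640828, plus strand: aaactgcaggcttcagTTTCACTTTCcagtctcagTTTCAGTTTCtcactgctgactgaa
Irgm1, chr11:48871421-48871480, minus strand: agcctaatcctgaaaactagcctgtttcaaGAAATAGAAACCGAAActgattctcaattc
Oas3, chr5:120777700-120777759, minus strand: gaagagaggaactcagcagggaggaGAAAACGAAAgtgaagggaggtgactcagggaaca
Stat2, chr10:128270251-128270310, plus strand: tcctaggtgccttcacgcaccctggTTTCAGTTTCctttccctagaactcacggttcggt
In Irgm1 2 matches overlap. The element was in 13 of the 27 members with a window (48.1%) and in 2.98% of all windows. The median ratio was -0.38 over the 13 members with a match and -0.36 over the 14 without, so the letters did not sort the ratios.

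Chemokines of the group came first. Cxcl10, a ligand of the T-cell receptor CXCR3, read 1630.5 in WT and 920.5 in TNC-KO, and at most 281 in the other 6 pools. Cxcl11, another CXCR3 ligand, which is on the chemokine list only, read 217 and 109 and passed the filter only through the WT pool. Antiviral effectors followed: Ifit1, which binds viral RNA, read 2639 in WT and 1850.4 in TNC-KO, and Mx1, a GTPase that blocks influenza virus, read 1082 and 669. Oasl1, which restrains translation of Irf7, read 641 and 383, and Cmpk2, a mitochondrial nucleotide kinase, read 857 and 517. The signalling members lay in the same range: Stat2 read 566 and 343, with a second probe set at -0.36, and Irf7 read 1853 and 1309.

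Summed over the list, both challenged infrarenal pools nevertheless held more of these messages than the other pools, though not for every member. The highest signal of any member was 6119 in these 2 pools and 11384 in the other 6. Mx1 read between 94.1 and 192 in the other 6, and the list's summed signal was 81221 in the WT pool, 66199 in the TNC-KO pool and 35851 to 45339 elsewhere. In the other pairs 11 members were below 0 in the challenged suprarenal aorta, 15 in the untreated infrarenal and 7 in the untreated suprarenal aorta, with medians of 0.12, 0.04 and 0.17. The median response to the challenge, challenged minus untreated infrarenal pool, was 1.64 in WT and 1.15 in TNC-KO; these values share the challenged arrays with the ratios above and add nothing independent.

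**Figure D5:**
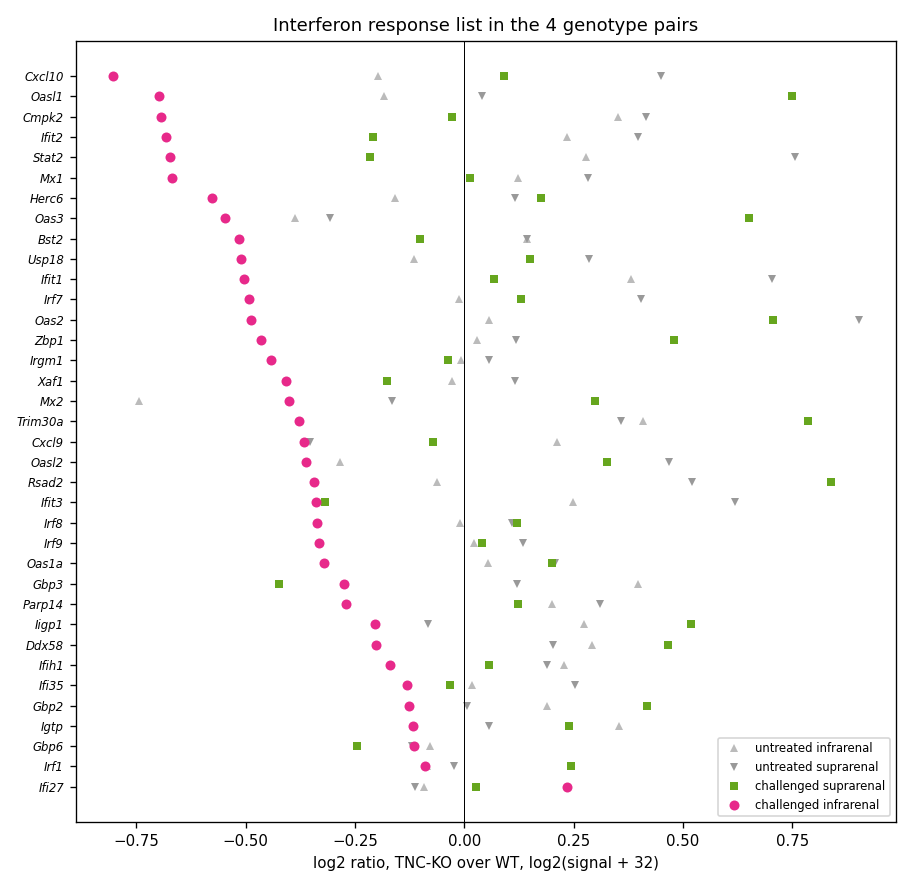
Log2 ratios of TNC-KO over WT (x axis, log2(signal + 32)) of the 36 interferon response genes (y axis) in the 4 pairs of pools, ordered by the challenged infrarenal pair (pink circles). The pink circles lie left of 0 for 35 genes, from -0.80 for Cxcl10, while the other 3 pairs scatter on both sides of 0.

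Most lymphocyte genes past the filter read lower in the same pool. Of 14 B and plasma cell genes past the filter, 2 were at least 2-fold lower, against 0.437% of all genes, 10 were below 0, against 44.8%, and the median was -0.42. With the 75th percentile filter 5 of 9 were below 0 and the median was -0.02. The order did not hold in the challenged suprarenal pair, where 1 of the 14 was below 0 and the median was 0.38. There were 7 below 0 in the untreated infrarenal and 1 in the untreated suprarenal pair, with medians of 0.01 and 0.47. Ms4a1, the B-cell antigen CD20, read 1064 in WT and 479 in TNC-KO, and a second probe set gave -1.18. Fcer2a, the low-affinity IgE receptor of B cells, read 348 and 127.7, and Cr2, a complement receptor of B cells, read 202 and 103. Cr2 passed the filter only through the WT pool, so the filter fixed its direction. Antibody genes did not follow: Ighm, the heavy chain of IgM, read 5070.4 and 7369, and Jchain, the joining chain of secreted antibody, read 8595 and 10553. Ms4a1 read highest in the untreated suprarenal pools, at 1697 in WT and 2395 in TNC-KO. Glycam1, made by the high endothelial venules of lymph nodes, was also highest there, with 2707 and 3182, and it read 916 and 626 in the challenged infrarenal WT and TNC-KO pools, and its part in the B-cell ratios was not tested.

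T and NK cell genes gave the same order at lower signals. Of 19 past the filter, 16 were below 0, against 44.8% of all genes, with a median of -0.27. Here too the order did not hold in the challenged suprarenal pair, with 3 below 0 and a median of 0.27. The untreated infrarenal pair had 10 below 0 and the untreated suprarenal pair 3, with medians of -0.02 and 0.30. Gzmb, a granzyme of cytotoxic cells, read 295 in WT and 152 in TNC-KO, and Ctla4, an inhibitory T-cell receptor, read 136 and 67.1. Ctla4 passed the filter only through the WT pool, so the filter fixed its direction. Ccl5, a chemokine made by T cells, read 2133 and 1457. Zap70, a T-cell receptor kinase, stands on the other side with 308 and 969.9, but its 2 other probe sets gave ratios of -0.41 and -0.57, so the probes disagree on its direction. The summed signal of the T and NK list was 10144 in WT and 8987 in TNC-KO, and that of the interferon list stood in the same order. That of the B and plasma cell list stood the other way, with 36053 in WT and 40575 in TNC-KO. Whether the lists share a source was not tested.

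Macrophage genes read alike in the 2 pools, as most genes did. All 33 passed the filter, 31 lay within 1.5-fold, where 3.01% of all genes were further apart, and the median was -0.02. Fcgr1, a high-affinity IgG receptor, read 2447 in WT and 1753 in TNC-KO. The exception on the lower side was Marco, with a ratio of -0.66. The exception on the higher side was Arg1, or arginase 1, an enzyme of alternatively activated macrophages, with 431 in WT and 1302 in TNC-KO. Arg1 read at most 71 in the untreated pools, and it read 123 and 6791 in the challenged suprarenal WT and TNC-KO pools, so the genotypes stood in the same order in both challenged segments and much further apart in the suprarenal one.

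Neutrophil genes and chemokines gave a mixed picture. Of 15 neutrophil genes past the filter, 3 passed only through the TNC-KO pool, and the 2 that read at least 2-fold higher (0.368% of all genes did) were among them. The median was 0.28 in the challenged infrarenal and 2.29 in the challenged suprarenal pair. S100a8, a calcium-binding protein abundant in neutrophils, read 4792 in WT and 7819 in TNC-KO, against 475 and 17385 in the challenged suprarenal pair. The 2-fold members Ngp and Camp, granule proteins, were dim and below the filter in the WT pool, at 81.2 and 242 for Ngp and 55.5 and 154 for Camp.

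Of 37 chemokine and cytokine genes, 2 were at least 2-fold higher, against 0.368% of all genes, 1 was at least 2-fold lower, against 0.437%, and the median was -0.07. Cxcl3, which draws neutrophils, read 277 in WT and 679.8 in TNC-KO, and Ppbp, a chemokine of platelets, read 202 and 523. Cxcl5, another neutrophil chemokine, stood the other way round with 2128 and 1031. In the challenged suprarenal pair all 3 read higher in TNC-KO: Cxcl3 at 18.2 in WT and 9265 in TNC-KO, Ppbp at 236 and 4253, and Cxcl5 at 28.2 and 2848. Acod1, which makes itaconate in activated macrophages, resembled Cxcl5 with 387 in WT and 156 in TNC-KO.

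Proliferation and fat genes leaned opposite ways by small amounts. Of 35 cell-cycle genes past the filter, 26 were below 0, against 44.8% of all genes. The median was -0.19, and none was 2-fold apart, where 0.805% of all genes were. Of the 35, 4 passed only through the WT pool and 2 only through the TNC-KO pool, so the filter fixed their direction. With quantile normalization 22 of the 35 were below 0 and the median was -0.17. Cdk1, the mitotic kinase, read 403 in WT and 264 in TNC-KO, and Mcm6, a replication helicase subunit, read 1325 and 892. Of 23 adipocyte genes, 20 were above 0, against 55.2% of all genes, and the median was 0.32, again with none 2-fold apart. With quantile normalization 18 of the 23 were above 0 and the median was 0.23. Of the 23, 1, Lep, passed only through the TNC-KO pool. Fasn, or fatty acid synthase, read 5933 in WT and 9319.9 in TNC-KO, and Lep, which encodes leptin, read 69.3 and 133. The summed signal of the fat list was 137815 and 167260.3 in these 2 pools and 235211 to 299349 in the other 6, so both pools carried less of it than any other.

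The inducible HSP70 genes led the list of immediate early genes. Of its 25 members past the filter, 2 were at least 2-fold higher in TNC-KO, against 0.368% of all genes, none was lower and the median was 0.12. Hspa1a, an inducible chaperone of the HSP70 family, read 729 in WT and 2303 in TNC-KO, and its near-identical copy Hspa1b read 2149.7 and 5288; probes may not separate the 2 genes. The 3 probe sets of Hspa1b had ratios of 1.29, 1.48 and 1.55. Dnajb1, the co-chaperone of HSP70, read 1274 and 1923. Hspb7, a small heat shock protein of muscle that is not on the list, read lower, with 1861 in WT and 1218 in TNC-KO. Hspa1b read 4522 and 10411 in the challenged suprarenal pair and 18107 and 15187 in the untreated infrarenal pair and 14823 and 10558 in the untreated suprarenal pair, so all challenged pools were below the untreated ones and the WT challenged infrarenal pool was the lowest.

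Genes next to Tnc were read separately, as a knockout line can carry flanking DNA of the strain it was made in; whether this one does was not tested. Of the 60 nearest genes measured on the array, 30 on each side in the RefSeq gene order (GRCm38.p6), 32 passed the filter. Of these, 1 was 2-fold apart, where 0.805% of all genes were. Alad, the second enzyme of haem synthesis, read 601 in WT and 1474 in TNC-KO, and its second probe set had a ratio of 1.45. Alad was higher in TNC-KO in every pair, with 1061 and 2245 in the challenged suprarenal aorta, 793 and 1826 in the untreated infrarenal aorta, and 1111 and 1865 in the untreated suprarenal aorta. The WT pools ran from 601 to 1111 and the TNC-KO pools from 1474 to 2245, without overlap. The share of all genes without such overlap was not computed. Hdhd3, its neighbour in the gene order, read 136 and 289, also higher in TNC-KO in all 4 pairs. The other 30 neighbours that passed the filter had absolute ratios of 0.49 or less.

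A few genes outside these groups also stood about 2-fold apart. Atoh8, a transcription factor, read 196 in WT and 32.8 in TNC-KO, and lower in TNC-KO in each of the other pairs by less, with ratios of -0.40, -0.33 and -0.26. Its TNC-KO signal in the challenged infrarenal pair was below the filter. Irf4, a transcription factor of lymphocytes and fat cells, read 449 and 209, with ratios of -0.78, -0.75 and -0.72 in the other pairs, although its dimmer second probe set gave 0.07. Tmem41a, a membrane protein gene, read 333 and 793. Rasl10b, a small GTPase of the Ras family, read 24.7 and 133, and Pmf1, a kinetochore protein gene, read 66.1 and 273; in both the WT signal was below the filter. Over all 51 lower genes, 14 had another probe set past the filter and all 24 such probe sets had a ratio below 0. Over the 43 higher genes, 7 had one, and 7 of the 9 such probe sets were above 0, the 2 others being those of Zap70.

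Set against the challenged suprarenal pair, the 2 directions gave different shares, a difference that was not tested. Of the 43 genes that read higher in the challenged infrarenal aorta, 35 (81.4%) were also above 0 in the challenged suprarenal pair, where 44.2% of all 11677 genes were, and 18 were at least 2-fold higher there (2.11% of the genes of that pair). Muscle genes made up 13 of the 43. Of the 51 that read lower, 14 (27.5%) were below 0 there, where 55.8% of all genes were, and 6 were at least 2-fold lower (0.227% of the genes of that pair): Tnc, Klk1 and the clock genes Dbp, Per3, Nr1d2 and Nr1d1. Another 15 were at least 2-fold higher there, most of them pancreas genes.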

How the data were processed

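Total RNA of pooled aortic segments was hybridised to a 3′ expression array of the Affymetrix GeneChip type. Per the submitters' processing notes the authors used Affymetrix Expression Console; no source used here gives its algorithm or settings. The deposited table gives linear intensity for 45101 probe sets on 22 arrays, and the average of the middle 96% was 500.0 on each aortic array. Genes were named from GEO's platform annotation and checked by gene ID. Of the probe sets, 64 controls, 932 with more than 1 symbol and 9160 unnamed ones were dropped, and 34945 gave 18193 genes, each read from its brightest probe set by average over 22 arrays. Ratios were taken on log2(value + 32), with genes kept at or above the 50th percentile of an array on at least 1 of 2 arrays. With 1 array per side the number of arrays limits precision and no test was made; a gene counts as called past 2-fold.

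Genes were named by rule: Tnc, the 25 highest and 25 lowest ratios, up to 6 members with the largest ratio of each list and all of short lists, 15 each way by the difference from the untreated pair and by the ratio shared with the challenged suprarenal pair, and 2-fold neighbours of Tnc among 30 on each side. Further list members, with Glycam1, Atoh8, Tmem41a, Acod1, Irf4, Csrp3, Myhas and Ccdc180, were picked after their values were seen. The members and the 49 gene lists were chosen with earlier results of these data known; a list of clock genes was added after values were seen. Promoter windows came from RefSeq (GRCm38.p6). Python 3.11.15, pandas 2.3.3, numpy 2.4.6 and matplotlib 3.10.9 were used. Alternatives were other offsets, scalings, filters, probe-set rules, a 1.5-fold threshold and leaving out tissue marker lists or genes high in a single pool.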

Additional observations from a re-analysis of the deposited data

Results flagged for a closer look

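Gene lists and genes are given here if they were at least 2-fold apart in the challenged infrarenal pair and at least 2-fold apart the opposite way in another pair. Genes of the pancreas and muscle lists are given through their list. With 1 pool per group none of these differences between pairs was tested.

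The skeletal and cardiac muscle list had a median ratio of 1.10 in the challenged infrarenal pair, -2.33 in the untreated infrarenal pair and -3.85 in the untreated suprarenal pair. The exocrine pancreas list had -2.59 in the challenged infrarenal and 1.23 in the challenged suprarenal pair. The 3 adrenal genes past the filter had 1.33 and -2.54 in the same pairs. Of these 3, 2 passed only through the TNC-KO pool of the challenged infrarenal pair, so the filter fixed their direction there.

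Among single genes outside these 2 lists, the secretory genes Zg16 (-3.29 in the challenged infrarenal and 1.53 in the challenged suprarenal pair), Pnliprp1 (-3.15 and 1.48), Sycn (-3.14 and 1.01) and Pla2g1b (-2.30 and 1.01) turned with that list, as did 2210010C04Rik (-2.66 and 1.71) and 1810064F22Rik (-1.51 and 1.51). The adrenal genes Hsd3b1 (2.49 and -5.07) and Cyp11b1 (1.33 and -2.54) turned the other way. Both passed the filter in the challenged infrarenal pair only through the TNC-KO pool, which fixed their direction there. The inflammatory genes Cxcl5 (-1.02 and 5.58), Slfn4 (-1.01 and 4.88) and Acod1 (-1.16 and 3.31) read lower in TNC-KO below the renal artery and higher above it. Slfn4, a schlafen gene of myeloid cells, read 7856 in WT and 3871 in TNC-KO in the challenged infrarenal pair, and 215 and 7208 in the challenged suprarenal pair.

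Of the 43 higher genes, 16 were at least 2-fold lower in TNC-KO in the untreated infrarenal pair, 11 of them on the muscle list, and 19 in the untreated suprarenal pair, 13 of them on it. Striated muscle genes outside the list did the same: Apobec2 had a ratio of 1.09 in the challenged infrarenal pair, -1.11 in the untreated infrarenal and -2.68 in the untreated suprarenal pair. In the untreated suprarenal pair Sln had -4.22 against 1.16, Csrp3 -2.46 against 1.16 and Myhas -4.03 against 1.01. The neutrophil genes Camp (1.09, then -1.52 untreated infrarenal and -1.89 untreated suprarenal) and Ngp (1.28, then -1.24 and -1.47) turned too. In the untreated infrarenal pair Ccdc180 had -1.09 against 1.07 and Pmf1 -1.02 against 1.63. Of the 43 higher genes, 21 passed the filter only through the TNC-KO pool, Camp, Ngp and Pmf1 among them. The filter fixed the direction of these 21 in the challenged infrarenal pair.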

How the results depend on the processing

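The 334 named genes and 50 lists were read again under 8 other settings of offset, scaling, filter and probe set. None of those that were 2-fold apart changed sign, but most of the 334 and of the 50 were not 2-fold apart. List medians near 0 could change sign, as that of the macrophage list did, from -0.02 to 0.04 with each array centred on its median. Tnc had a ratio of -2.53; it was -2.31 with a 4 times larger offset and -1.29 as the mean of its 2 probe sets. The 43 higher genes became 67 without an offset, 20 with the larger offset, 139 without a filter, 21 with a 75th percentile filter, 164 at 1.5-fold and 28 without the pancreas, muscle, adrenal and kidney lists. The 51 lower genes became 104 without a filter, 188 at 1.5-fold and 21 without genes 4-fold above the other 7 pools. The 1.5-fold threshold and leaving out tissue lists or single-pool genes were chosen after seeing the data. With the larger offset, 37 of the 51 and 20 of the 43 were still 2-fold apart, so the higher calls rest more on dim genes. Of the 36 interferon genes, 35 stayed below 0 under each scaling, offset and probe-set rule, and 33 of 34 under the stricter filter. No paired analysis was possible because each aortic condition is 1 pooled array without replicates.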

Other observations

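Seminal vesicle genes were among those whose ratio was lower in the challenged than in the untreated infrarenal pair. Svs4, a seminal vesicle secretory protein gene, read 36.6 in the untreated infrarenal WT pool and 4505 in the TNC-KO pool, and 1.22 and 0.653 in the challenged infrarenal WT and TNC-KO pools. Svs2 read 27.1 and 2037 in the untreated and 0.684 and 0.612 in the challenged infrarenal WT and TNC-KO pools. The untreated infrarenal TNC-KO pool thus carried seminal vesicle messages that neither challenged infrarenal pool showed.

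Cholesterol synthesis genes leaned towards TNC-KO: of 18 past the filter 16 had a ratio above 0, against 55.2% of all genes, with a median of 0.17. Mvd, a decarboxylase of the mevalonate pathway, read 152 in WT and 242 in TNC-KO, and Fdps, which makes farnesyl diphosphate, read 828 and 1109. The median was 0.08 in the challenged suprarenal, 0.01 in the untreated infrarenal and 0.30 in the untreated suprarenal pair, so the lean was larger in an untreated pair.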
